A study of Mus musculus with 4 samples.

Results

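The vacuolar H+-ATPase (V-ATPase), the cathepsins and the LAMP proteins form the working core of the lysosome, and their 43 genes were followed in splenic B cells of 2 mouse lines at rest and after LPS. The members were taken by name alone, as every gene symbol that begins with Atp6v, that is Cts followed by 1 letter, or that is Lamp1, Lamp2 or Lamp3, of 41342 named genes. They comprised 13 genes of the V1 sector and 9 of the V0 sector of the V-ATPase, 14 cysteine, 2 aspartic and 2 serine cathepsins, and 3 LAMP genes. Of these, 28 reached a mean of 50 reads over the libraries and were tested (8 V1, 6 V0, 8 cysteine, 2 aspartic and 1 serine cathepsin, and all 3 LAMP genes).

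The V-ATPase pumps protons into the lysosome. Its cytosolic V1 sector hydrolyses ATP and its membrane-bound V0 sector carries the protons across. The acid interior lets cathepsins, which are proteases made as inactive precursors, mature and work, while the heavily glycosylated LAMP proteins line the lysosomal membrane. In B cells the same compartment cuts antigen and the invariant chain so that peptides can be loaded on MHC class II.

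Total RNA depleted of ribosomal RNA was sequenced from CD43-depleted splenocytes, a preparation enriched in B cells, of mice on a 129 background. ΔleftPAL mice lack a fragment of the IgH 3' regulatory region with the enhancers hs3a and hs1,2 and the intervening repeats (IRIS), whereas ΔIRIS mice lack the repeats and keep all the enhancers, with hs3a inverted. Each genotype gave 1 library of freshly isolated (resting) cells and 1 library of cells kept in LPS (5 μg per ml, 48 h), the lipopolysaccharide of bacterial walls and a B-cell mitogen. Each library held material of pooled mice (a pool of cells from 4 animals according to the labels, pools of RNA according to the methods). The mice were males of 8 to 12 weeks. The number of mice behind a library is described in different ways, and wt libraries were not analysed here. LPS-cultured cells were separated again on a gradient and no culture without LPS was among the libraries, so LPS, culture and this separation cannot be told apart.

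The gene counts summed to 23621743 and 28711549 in the resting ΔleftPAL and ΔIRIS libraries and to 27780350 and 29778717 in the LPS libraries, and 3 counts, the smallest level taken as shown, corresponded to 0.102 to 0.123 CPM (reads scaled to TMM effective library sizes). The 43 genes took 0.254% and 0.267% of the reads at rest and 0.1615% and 0.151% after LPS, in ΔleftPAL and ΔIRIS respectively. All 10 B-cell markers examined were above 1 CPM in all 4 libraries. The resting libraries also held RNA of other cells, and its levels are given beside the cathepsins. All values are shares of a library's RNA. Fewer cells of a type and less RNA per cell cannot be told apart in them.

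The promoters shown are those of the genes with the largest called change in each direction among the members in the promoter table (Atp6v1a, higher after LPS, and Ctsf, lower), with those of Ctsa, Ctsd and Lamp1 added after their values were seen, as examples with more than 1 copy of the same motif (Atp6v0b also has 2 copies and is not shown). Ctsf reached the count limit of the test only through the resting libraries. They come from the RefSeq promoter table (GRCm38.p6, the assembly also called mm10), read 5′ to 3′ on the gene's strand from 250 bases before the annotated start site to 25 bases after it. Capitals mark CACGTG, the E-box letters that MiT/TFE factors, the basic helix-loop-helix regulators of lysosomal genes, are known to bind. Atp6v1a lies at chr16:44139235-44139509 (minus strand), Ctsf at chr19:4854915-4855189 (plus), Ctsa at chr2:164833523-164833797 (plus, the second of its 2 windows), Ctsd at chr7:142387803-142388077 (minus) and Lamp1 at chr8:13158911-13159185 (plus).

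Atp6v1a: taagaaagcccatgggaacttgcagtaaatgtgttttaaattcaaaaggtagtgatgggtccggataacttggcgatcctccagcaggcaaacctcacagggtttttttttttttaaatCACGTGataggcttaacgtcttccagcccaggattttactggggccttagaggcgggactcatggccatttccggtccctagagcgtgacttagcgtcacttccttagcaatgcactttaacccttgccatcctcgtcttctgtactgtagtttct
Ctsf: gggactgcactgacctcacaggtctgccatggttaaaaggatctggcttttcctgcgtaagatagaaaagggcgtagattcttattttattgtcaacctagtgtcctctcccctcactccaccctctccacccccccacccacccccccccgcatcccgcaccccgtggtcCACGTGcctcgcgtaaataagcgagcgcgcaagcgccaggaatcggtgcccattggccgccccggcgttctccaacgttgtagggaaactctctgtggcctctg
Ctsa: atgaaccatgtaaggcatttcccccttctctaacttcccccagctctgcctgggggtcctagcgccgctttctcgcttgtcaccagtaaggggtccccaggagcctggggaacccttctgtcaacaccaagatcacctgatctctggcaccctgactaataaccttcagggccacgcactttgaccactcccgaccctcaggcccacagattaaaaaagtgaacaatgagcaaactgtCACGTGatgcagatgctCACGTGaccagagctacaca
Ctsd: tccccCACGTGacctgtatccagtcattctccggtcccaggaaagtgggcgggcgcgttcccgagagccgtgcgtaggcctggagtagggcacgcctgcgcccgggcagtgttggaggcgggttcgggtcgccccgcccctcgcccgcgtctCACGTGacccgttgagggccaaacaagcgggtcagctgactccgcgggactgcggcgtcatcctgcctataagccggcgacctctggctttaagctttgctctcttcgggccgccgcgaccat
Lamp1: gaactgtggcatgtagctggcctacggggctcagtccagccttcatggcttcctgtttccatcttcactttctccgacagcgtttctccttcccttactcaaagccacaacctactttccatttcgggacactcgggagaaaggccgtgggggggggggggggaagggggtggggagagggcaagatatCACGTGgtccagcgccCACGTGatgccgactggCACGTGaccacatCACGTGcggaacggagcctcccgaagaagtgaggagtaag

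CACGTG is its own reverse complement, so both strands were searched at once. It was present in 9 of the 20 tested members that the table holds (45%), namely Atp6v0b, Atp6v0d1, Atp6v0e, Atp6v1a, Ctsa, Ctsd, Ctsf, Ctsl and Lamp1. The window searched was 300 bases, from 250 before the start site to 50 after it, and so longer than the stretch printed. Over all 32851 promoters of this window 7.15% held it, and among 7968 tested genes that the table holds, 12.4% did. The longer palindrome TCACGTGA, which contains CACGTG, was in 5 of the 20 members (Atp6v0d1, Atp6v0e, Atp6v1a, Ctsa and Ctsd) and in 0.974% of all promoters, or 2.54% of the tested genes. Members with CACGTG did not share a direction after LPS. The letters stood in the promoter of the 1 matched gene called higher, in 6 of 10 called lower and in 2 of 9 not called. The 10 include Ctsf, with the letters, and Lamp3, without them. Both met the count limit only through the resting libraries, so their fall is no support for this count. Atp6v1a and Ctsd, both with TCACGTGA, moved in opposite directions. A match describes the sequence and is no evidence of binding, and the other members outside the table (among them Atp6v1c1, Ctsb, Ctse and Ctsh) were not searched.

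LPS-cultured cells were compared with resting cells first, with the 2 genotypes serving as the 2 libraries of each state (edgeR's quasi-likelihood test with a genotype term, 1 residual degree of freedom). The spread behind each p-value is therefore the difference between 2 genotypes in their response plus library noise. It is not that between repeated cultures of 1 genotype. A prior shared across genes, with 4.35 degrees of freedom, moderated this spread. Each SE is the size of the log2 difference over the square root of the moderated F. Most cathepsins fell, and 11 of the 14 tested V-ATPase genes were not called, while 64.3% of all genes tested were called in either direction. Of 28 members 13 fell, against 27.9% of the 11286 genes tested, and 2 rose, against 36.4%. At least 2-fold lower were 9 members, against 16.7% of all genes, and at least 2-fold higher was 1, against 21.8%. Ctsf and Lamp3 reached the mean of 50 reads only through the resting libraries, where they are high, and their fall is no support for these counts. Without them 11 of 26 members fell, 7 of them at least 2-fold. The median log2 difference between LPS and resting cells was -0.33 over the members and 0.12 over all genes. By group it was 0.19 for V1, -0.15 for V0, -1.78 for the 11 cathepsins and -0.65 for the LAMP genes. Without Ctsf and Lamp3 it was -0.21 over the members, -1.62 for the cathepsins and -0.37 for the LAMP genes.

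**Figure D1:**
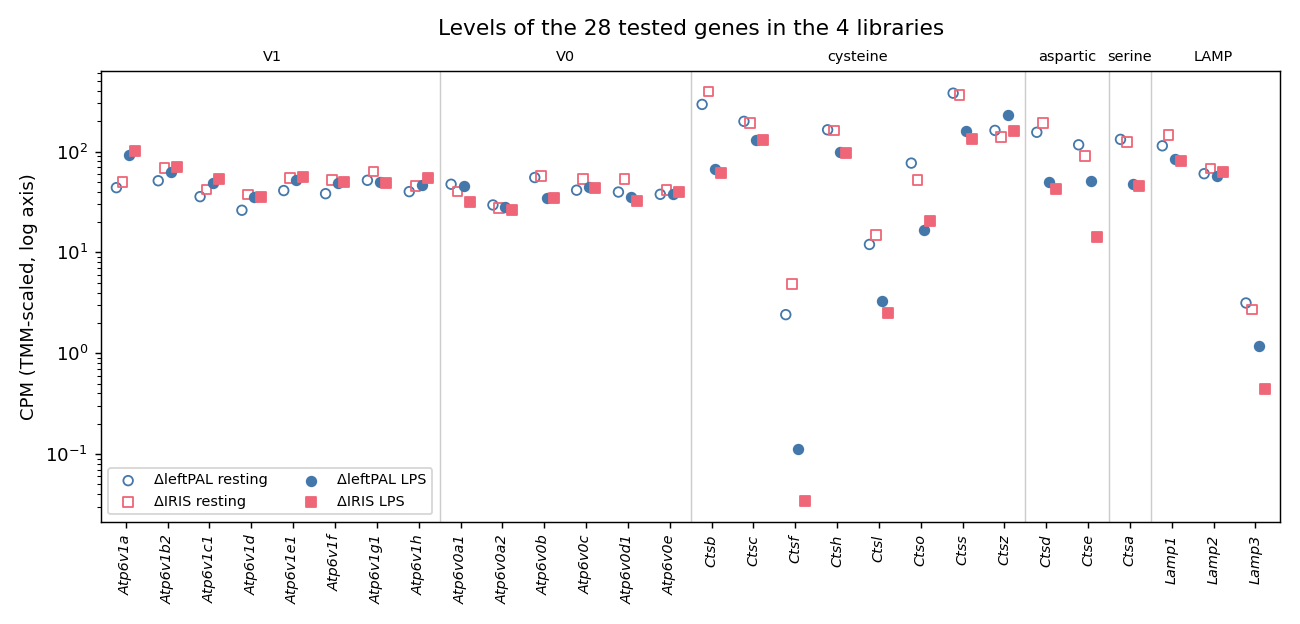
Level of each tested member in the 4 libraries, in CPM on a log axis, with open symbols for resting and filled symbols for LPS-cultured cells. The V-ATPase genes sit together in a narrow band in all libraries apart from the higher Atp6v1a after LPS, while most cathepsins are lower in both LPS libraries than in both resting ones, Ctsz being the exception.

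Atp6v1a, which encodes the catalytic A subunit of V1, was the 1 member that rose at least 2-fold. It had 43.9 and 49.98 CPM at rest and 92.7 and 101.5 CPM after LPS in ΔleftPAL and ΔIRIS. The log2 difference was 1.05 ± 0.12 (SE; adjusted p = 0.0012), and the 2 states did not overlap. Atp6v1c1, for the C subunit that regulates the joining of V1 to V0, was at 35.7 and 42.0 CPM at rest and at 49.0 and 53.2 CPM after LPS. Its rise of 0.40 ± 0.12 (adjusted p = 0.034) passed the test. That call was lost with total counts as library sizes, with TPM, with DESeq2's Wald test, and without any 1 library other than resting ΔIRIS, with adjusted p from 0.061 to 0.30.

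The other 6 V1 genes did not pass the test. Atp6v1b2, the B subunit that shares the catalytic ring with A, was at 51.4 and 68.5 CPM at rest and at 63.4 and 71.1 CPM after LPS, so that the resting ΔIRIS library lay above the ΔleftPAL library after LPS. Atp6v1d, for the central rotor stalk, was at 26.2 and 37.6 CPM at rest and at 35.4 and 35.8 CPM after LPS. Atp6v1e1, for the peripheral stalk, showed the same overlap, with 41.1 and 55.0 CPM at rest against 52.5 and 56.3 CPM. For these 3 genes the log2 differences were 0.18, 0.18 and 0.19, with adjusted p of 0.27 to 0.38. Atp6v1f and Atp6v1h had 0.15 and 0.24. Atp6v1g1 was the 1 V1 gene with a value below 0 (-0.20, adjusted p = 0.24). Within ΔleftPAL alone 7 of the 8 V1 genes had a log2 ratio above 0 (median 0.35), and within ΔIRIS 5 of 8 did (median 0.04). The share of all genes above 0 was not counted within a genotype. In the fit over both genotypes the median of all genes was itself above 0, at 0.12. With TPM, where the median of all genes was -0.19, Atp6v1b2, Atp6v1d, Atp6v1e1, Atp6v1f and Atp6v1h had values below 0.

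Of the V0 genes 1 of 6 fell, beside 27.9% of all genes. Atp6v0b, which encodes a proteolipid of the rotating membrane ring, went from 55.3 and 57.5 CPM at rest to 34.7 CPM in both LPS libraries (log2 difference -0.70 ± 0.12, adjusted p = 0.0046). Atp6v0d1, the subunit that links the ring to the central stalk, was at 39.7 and 53.7 CPM at rest and at 35.3 and 32.3 CPM after LPS. Its difference of -0.45 ± 0.17 missed the threshold (adjusted p = 0.067), and passed it with total counts, with no filter on low counts, with DESeq2's Wald test and without the resting ΔleftPAL library. Without the resting ΔIRIS library it was -0.23 (adjusted p = 0.23). Atp6v0c, the other proteolipid, was at 41.4 and 53.4 CPM at rest and 44.5 and 43.3 CPM after LPS, and Atp6v0e, a small membrane subunit, at 37.7 and 41.6 CPM and 37.7 and 39.8 CPM. Both pairs of states overlapped. Of the large membrane a subunits, Atp6v0a1 gave -0.21 and Atp6v0a2 -0.06, with adjusted p of 0.24 and 0.70. The a3 subunit is encoded by Tcirg1, which the naming rule leaves out. It was at 61.7 and 57.9 CPM at rest and at 37.0 and 44.1 CPM after LPS, and fell (-0.56 ± 0.14, adjusted p = 0.017).

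The cathepsins fell in LPS culture with 1 exception among the 11 tested, beside 27.9% lower among all genes. Ctsf met the count limit only through the resting libraries, so its fall is no support for this count. The cysteine cathepsins are given first. Ctss, the protease known to trim the invariant chain in B cells and dendritic cells, was at 379.8 and 365 CPM at rest and at 161 and 133 CPM after LPS (log2 difference -1.35 ± 0.13, adjusted p = 0.00064). Ctsb, an endo- and exopeptidase that is abundant in macrophages, went from 294 and 393 CPM to 67.6 and 60.8 CPM (-2.41 ± 0.18, adjusted p = 0.00037). These 2 cathepsins took the most reads at rest, and neither showed overlap between the states. Ctsc, which activates serine proteases of granules, was at 199.5 and 192 CPM and at 129.9 and 131 CPM (-0.59 ± 0.12). Ctsh, an aminopeptidase, was at 164.5 and 161 CPM and at 98.1 and 96.5 CPM (-0.74 ± 0.12). The fall of Ctsc and Ctsh was thus under 2-fold, and the genotypes gave close values.

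Among the rarer cysteine cathepsins, Ctso was at 76.9 and 52.6 CPM at rest and at 16.5 and 20.7 CPM after LPS (-1.78 ± 0.23, adjusted p = 0.0017). Ctsl, which trims the invariant chain in thymic epithelium and macrophages, was at 11.996 and 14.9 CPM and at 3.30 and 2.49 CPM (-2.22 ± 0.27). Ctsf, an endopeptidase known from macrophages, had 59 and 141 reads at rest and 3 and 1 reads after LPS. The log2 ratio of LPS over resting for Ctsf was -4.44 in ΔleftPAL (95% counting interval -6.76 to -2.82) and -7.15 in ΔIRIS (-12.47 to -4.65), and its fitted value depends on the prior count.

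Ctsz, a carboxypeptidase, was the cathepsin that was not lower. It was at 162 and 140.2 CPM at rest and at 230.0 and 161 CPM after LPS, so that the ΔIRIS library after LPS lay slightly below the resting ΔleftPAL library. The log2 difference was 0.35 ± 0.14 and missed the threshold (adjusted p = 0.071), and passed it with kallisto estimated counts (adjusted p = 0.015). It was 0.088 without the ΔleftPAL LPS library and 0.60 without the ΔIRIS LPS library. Per length, in kallisto's TPM, Ctsz had the highest level of the cathepsins after LPS, with 198 and 134 TPM against 148 and 118 TPM for Ctss. At rest Ctss had stood at 413 and 387 TPM and Ctsz at 165 and 139 TPM.

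Both aspartic cathepsins fell. Ctsd, the main aspartic protease of lysosomes, was at 155 and 192 CPM at rest and at 50.5 and 42.8 CPM after LPS (-1.89 ± 0.18, adjusted p = 0.00060). Ctse, an aspartic protease of endosomes in antigen-presenting cells, went from 117 and 90.5 CPM to 51.1 and 14.2 CPM (-1.92 ± 0.36, adjusted p = 0.0061). Its call was lost without the resting ΔleftPAL library (-1.47, adjusted p = 0.091), and its value was -1.02 without the ΔIRIS LPS library and -2.87 without the ΔleftPAL LPS library. The serine carboxypeptidase Ctsa, which protects β-galactosidase and neuraminidase in the lysosome, had 132 and 125 CPM at rest and 47.9 and 45.2 CPM after LPS (-1.46 ± 0.12, adjusted p = 0.00048). Its log2 ratio was -1.46 in each genotype.

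**Figure D2:**
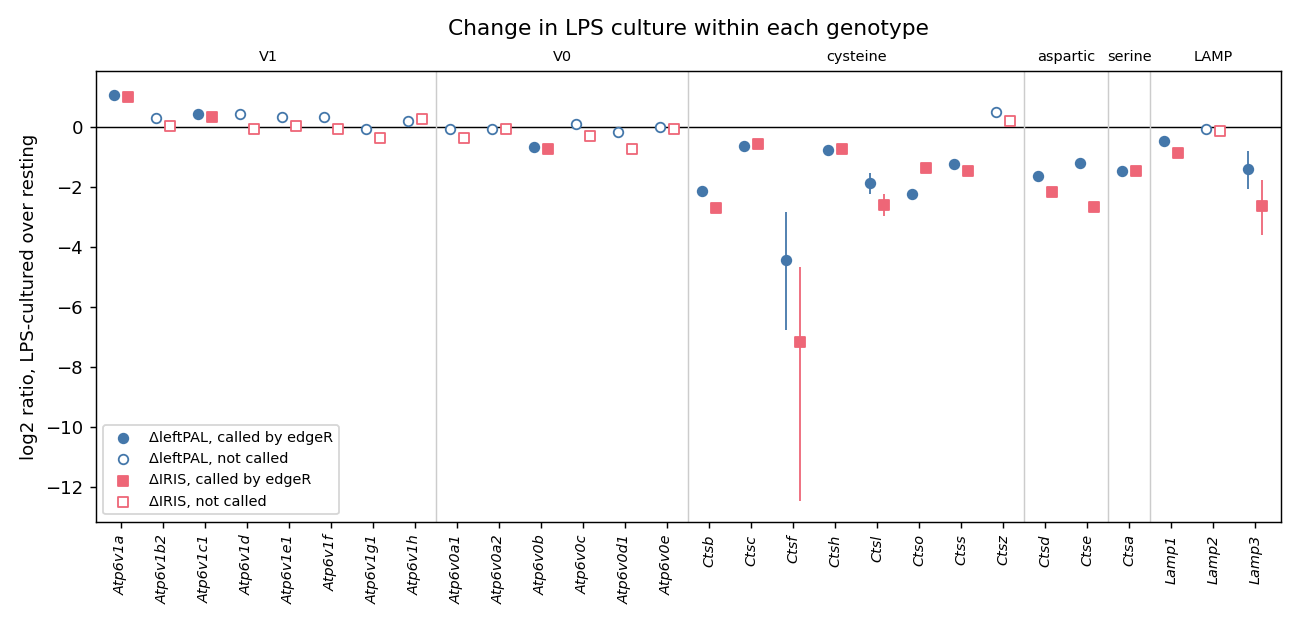
Log2 ratio of LPS-cultured over resting cells for each tested member within ΔleftPAL (circles) and ΔIRIS (squares), filled where edgeR called the gene over both genotypes. Bars are 95% intervals for counting error only and are often smaller than the symbol. All cathepsins but Ctsz lie below 0 in both genotypes, and V-ATPase genes lie closer to 0 apart from Atp6v1a (1.05 in the fit), Atp6v0b (-0.70) and, in ΔIRIS, Atp6v0d1 (-0.73), while Ctsf rests on 3 and 1 reads after LPS.

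LAMP genes were divided. Lamp1, the LAMP gene with the highest TPM in all libraries, was at 114 and 147 CPM at rest and at 83.9 and 81.3 CPM after LPS, and fell by 0.65 ± 0.15 on the log2 scale (adjusted p = 0.014). Lamp2, needed for the fusion of autophagosomes with lysosomes, was at 60.3 and 67.8 CPM and at 57.9 and 62.2 CPM, a difference of -0.09 ± 0.12 with overlapping states (adjusted p = 0.53). Lamp3, known from mature dendritic cells, was rare. It had 77 and 79 reads at rest and 32 and 13 reads after LPS (-1.94 ± 0.41), so that it reached the limit of 50 reads only through the resting libraries. With a limit of 10 reads, which both states met, its adjusted p was 0.0098. Without either LPS library in turn, the Lamp1 difference was -0.68 and -0.64 with adjusted p of 0.058 and 0.077. Lamp3 missed the threshold without the ΔIRIS LPS library, with -1.30 and adjusted p = 0.061.

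Markers of other cells had lower sums after LPS, as the cathepsins had. Of the tested myeloid markers 12 of 15 met the count limit only through the resting libraries, so their levels are given and their calls are not counted. The 17 listed markers of myeloid cells summed to 837 CPM in ΔleftPAL and 1089 CPM in ΔIRIS at rest, against 20.5 and 24.2 CPM after LPS. Csf1r, the receptor of the macrophage growth factor, had 4127 and 6532 reads at rest and 8 and 5 after LPS, and C1qa, a complement component of macrophages, had 1989 and 3163 reads and then 0 in both. In each LPS library 6 of the 17 myeloid markers were at 0 reads, and 4 and 3 of them were above 1 CPM. Csf1r and C1qa do not stand for the whole list. Of the 3 myeloid markers that met the limit in both states 2 fell, beside 27.9% of all genes, and 1 was not called. The cathepsins of the same LPS libraries summed to 856 and 708 CPM, against 1697 and 1731 CPM at rest. The resting ΔIRIS library was higher than the resting ΔleftPAL library in the myeloid sum and also in Ctsb, Ctsd, Ctsf, Ctsl, Lamp1 and Lamp2. It was not higher in Ctsa, Ctsc, Ctse, Ctsh, Ctso, Ctss, Ctsz or Lamp3. Dendritic-cell markers summed to 73.4 and 119 CPM at rest and 51.4 and 39.8 CPM after LPS. Flt3, a cytokine receptor, rose from 17.8 and 26.1 CPM to 45.3 and 36.0 CPM, most of the sum after LPS. T- and NK-cell markers summed to 68.4 and 54.5 CPM at rest and 19.7 and 17.9 CPM after LPS, of which Lck, a kinase of T-cell receptor signalling, made up 18.1 and 17.2 CPM, and 7 and 9 of the 15 were at 0 reads. Erythroid markers summed to 41584 and 29181 CPM at rest and 58.4 and 124 CPM after LPS. Neutrophil and mast-cell markers summed to 13.02 and 4.78 CPM at rest, and after LPS 15 and 14 of 15 were at 0 reads. B-cell markers went from 5329 and 4438 CPM to 2778 and 2830 CPM, with 9 of 10 lower beside 27.9% of all genes, among them Cr2 (-2.37), Blk (-1.43) and Fcrla (-1.17). The part of these cells in the fall of the cathepsins was not tested.

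**Figure D3:**
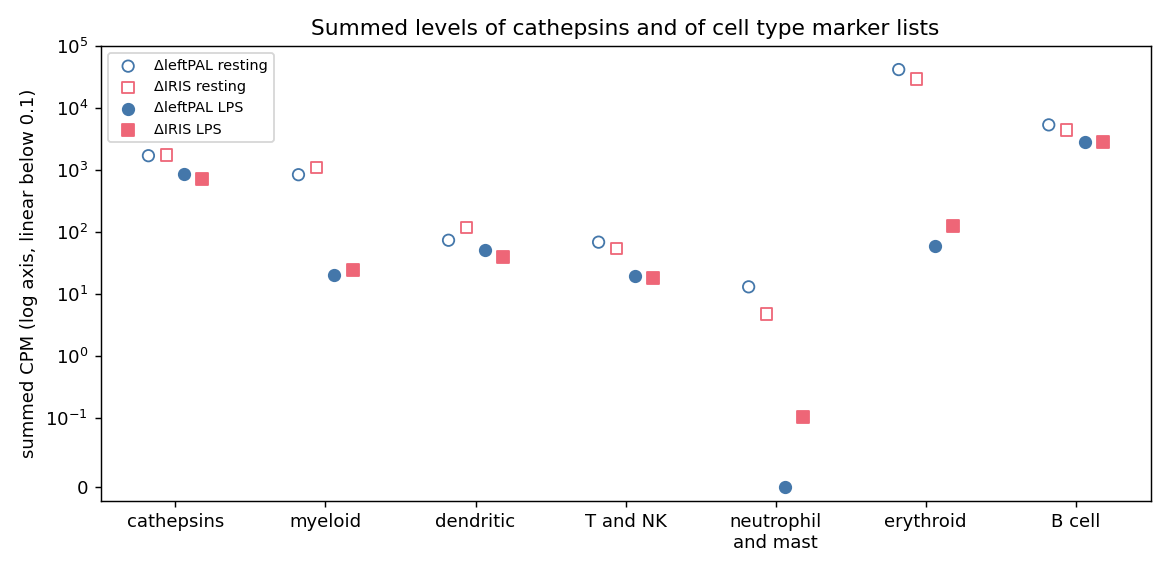
Summed CPM of the cathepsins and of marker lists of other cells and of B cells in each library, on a log axis that is linear below 0.1. The cathepsins go from 1697 and 1731 CPM at rest to 856 and 708 CPM after LPS, and the myeloid markers from 837 and 1089 CPM to 20.5 and 24.2 CPM.

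Levels were also compared per length, with the TPM that the authors deposited for transcripts, summed per gene. At rest the cathepsins summed to 1340 and 1252 TPM in ΔleftPAL and ΔIRIS and the V-ATPase genes to 718 and 842 TPM. After LPS the sums were 611 and 479 TPM for cathepsins and 645 and 628 TPM for the V-ATPase. The ratio of cathepsins to V-ATPase went from 1.87 and 1.49 at rest to 0.947 and 0.763 after LPS. The LAMP genes summed to 100.1 and 119.7 TPM at rest and 68.8 and 65.9 TPM after LPS. Subunits of the pump were not equally abundant. Atp6v1f, Atp6v0c and Atp6v0b led at rest in both genotypes (88.5 to 127 TPM), whereas Atp6v0a2 (12.8 and 11.8 TPM) and Atp6v1a (18.6 and 18.9 TPM) were lowest among the tested subunits, and Atp6v1a was at 30.6 and 29.0 TPM after LPS.

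**Figure D4:**
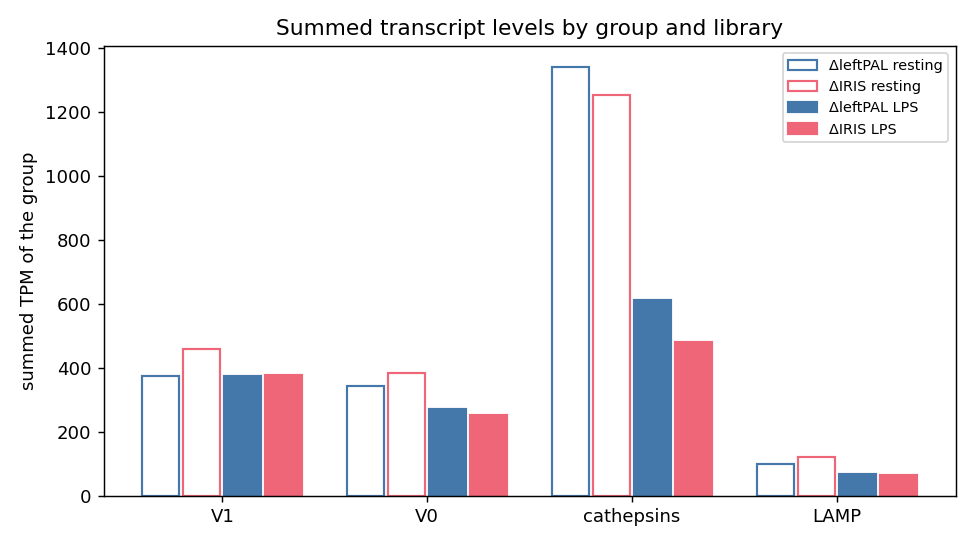
Summed TPM of V1, V0, cathepsin and LAMP genes in each library, with open bars for resting and filled bars for LPS-cultured cells. The cathepsin sum goes from 1340 and 1252 TPM to 611 and 479 TPM, and the V-ATPase sums change less.

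The transcripts behind these sums differed between the states. In GENCODE release M21 some transcripts are typed as retaining an intron, and 12 tested members had at least 1 of them in the table. The median share of TPM in protein-coding transcripts over these 12 was 80.9% and 83.4% at rest and 91.4% and 93.7% after LPS in ΔleftPAL and ΔIRIS. The share was higher after LPS in both genotypes for 11 of the 12 (91.7%), Ctso being the exception, and for 70.4% of 4335 such genes among all tested. Atp6v1b2 went from 58.7% in both genotypes to 83.4% and 88.1%, and Atp6v1h, a regulatory V1 subunit, from 66.5% and 70.9% to 89.4% and 93.5%. When protein-coding transcripts alone were counted, a choice made after these shares were seen, 5 of 27 members were called higher and 12 lower, beside 38.4% and 25.8% of all 10515 genes tested in this way. The 12 include Ctsf, which met the count limit only through the resting libraries, so its fall is no support for this count. Beyond the genes called in gene counts, those called higher were Atp6v1b2 (0.41, adjusted p = 0.037), Atp6v1h (0.56, adjusted p = 0.013) and Ctsz (0.42, adjusted p = 0.037). Of these, Ctsz was also called with all kallisto estimated counts. Atp6v1h had log2 differences of 0.24 in gene counts, -0.08 in all estimated counts and -0.40 in TPM, so its direction depended on the measure. For Lamp2 the transcript ENSMUST00000061755 kept 50.3% and 53.9% of the TPM at rest and 49.5% and 53.3% after LPS, and ENSMUST00000016678 took 31.1% and 29.0% and then 43.0% and 39.5%. Gene counts were close to kallisto's estimated counts for most members (median ratio 0.993), but for Atp6v0c they were 0.527 to 0.587 of them and for Atp6v1h 0.607 to 0.905.

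The 15 members below the count limit added little RNA. No read was counted in any library for 7 of them (Atp6v0a4, Atp6v1e2, Ctsg, Ctsj, Ctsm, Ctsq and Ctsr). Their group holds the kidney form of the a subunit, the neutrophil protease cathepsin G and the placental cathepsins. The kidney B subunit Atp6v1b1 had 1 read in all libraries together, the osteoclast subunit Atp6v0d2 had 2, Atp6v1g3 had 3 and Atp6v1c2 had 9. Atp6v0e2 had 12. The neuronal subunit Atp6v1g2 had 31, 19, 22 and 31 reads in resting and LPS ΔleftPAL and resting and LPS ΔIRIS libraries, in this order. In the same order Ctsk, the protease of osteoclasts, had 11, 11, 18 and 5 reads, and Ctsw, known from NK and cytotoxic T cells, had 20, 6, 10 and 2. Where a subunit has tissue-specific forms, the widely expressed one (Atp6v1b2, Atp6v1c1, Atp6v1e1, Atp6v1g1, Atp6v0d1 and Atp6v0e) carried nearly all the reads.

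Other genes of the lysosome were read from lists of known lysosomal genes. Of 41 further lysosomal hydrolases, all tested, 26 fell, 4 rose and 11 were not called, with a median log2 difference of -0.97, beside 27.9% lower, 36.4% higher and a median of 0.12 over all genes. Acp2 and Acp5, acid phosphatases, had log2 differences of -3.31 and -2.60, and Gla, the α-galactosidase, of -2.46. Gla had 496 reads in resting ΔleftPAL but 2461 in resting ΔIRIS cells, and 199 and 235 after LPS. Of 23 tested lysosomal membrane genes 11 fell and 0 rose, again beside 27.9% and 36.4% of all genes. The metal transporter Slc11a1 and Cd68, both known from macrophages, reached the count limit only through the resting libraries, with 512 and 668 reads at rest and 5 and 5 after LPS for Slc11a1 and 538 and 870 reads and 41 and 44 for Cd68. Of the 20 genes that met the limit in both states 9 fell, Tmem55b among them (-1.75).

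Factors around the pump behaved unevenly. Of 12 tested accessory and assembly factors of the V-ATPase 2 rose (Ccdc115, 0.89, and Vma21, 0.59) and 5 fell, beside 36.4% and 27.9% of all genes. Dmxl1 and Dmxl2, relatives of the yeast assembly factor Rav1, fell (-1.33 and -1.10), as did the accessory subunit Atp6ap1 (-0.93). Of 18 genes that sort proteins to lysosomes 4 rose and 6 fell, beside 36.4% and 27.9% of all genes. Sort1 fell by 3.31, whereas Igf2r, the large mannose 6-phosphate receptor that delivers many hydrolases, went from 32.5 and 37.8 CPM to 98.0 and 81.8 CPM (1.35 ± 0.16, adjusted p = 0.0013). The small receptor M6pr had 0.01 (adjusted p = 0.94). Of a pair of GTPases that move lysosomes, Arl8a fell (-1.12) and Arl8b rose (0.68, adjusted p = 0.018). Of 18 genes of the Ragulator, the Rag GTPases and mTORC1 4 rose and 6 fell, again beside 36.4% and 27.9% of all genes. Those that rose were Lamtor1 (0.51), Lamtor4 (0.63), Lamtor5 (0.77) and Rraga (0.54), and those that fell included Flcn (-1.03). Fnip2, with 3 reads in each LPS library, and Rragd, with 11 and 15, met the count limit only through the resting libraries, and 4 of the other 16 genes fell. Of the MiT/TFE factors Tfeb fell (-0.51), Mitf had 90 and 135 reads at rest and 34 and 34 after LPS, meeting the count limit only through the resting libraries, and Tfe3 was at 15.5 and 18.2 CPM at rest and 21.4 and 20.4 CPM after LPS (0.32, adjusted p = 0.13). Of 6 tested inhibitors of cathepsins 5 fell and 0 rose, beside 27.9% and 36.4% of all genes, led by Serpinb6a (-2.59), Serpinb1a (-2.51) and Cst3 (-1.96), which encodes cystatin C. The 5 include Cd74 (-1.58), the gene of the invariant chain, which was counted by its symbol without regard to isoform.

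The second comparison was between the genotypes. Over both states edgeR called none of the 28 members, and 0.00886% of all genes (1 gene). At an unadjusted p under 0.05 stood 3 members (Atp6v0a1, Ctse and Ctsz), and 7.02% of all genes. DESeq2's Wald test called 9 genes higher and 25 lower in ΔIRIS, and 0 members. The log2 difference of ΔIRIS from ΔleftPAL was -1.09 ± 0.35 for Ctse, -0.38 ± 0.14 for Atp6v0a1 and -0.36 ± 0.14 for Ctsz (adjusted p = 0.71 for each), with the same sign in both states.

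Within a state there was 1 library per genotype, so that the values that follow describe those libraries and have no replicate check. At rest 0 of 28 members were at least 2-fold higher or lower in ΔIRIS on the scale of log2(CPM + 0.5), against 1.83% and 1.02% of all genes. The nearest was Ctsf, with 59 and 141 reads and a log2 ratio of 1.01 (95% counting interval 0.56 to 1.47) without the added 0.5. After LPS 0 members were at least 2-fold higher, against 0.567%, and 1 was lower, against 1.41%. This was Ctse. It had 2852 and 2630 reads at rest and 1376 and 415 reads after LPS in ΔleftPAL and ΔIRIS. Relative to ΔleftPAL, the log2 level in ΔIRIS was -0.37 at rest (95% counting interval -0.45 to -0.29) and -1.85 after LPS (-2.01 to -1.69). The response of Ctse to LPS was thus -1.19 in ΔleftPAL and -2.68 in ΔIRIS. Responses at least 2-fold apart were seen in 2 members, Ctse and Ctsf, against 5.05% of all genes, and for Ctsf the LPS values are those of 3 and 1 reads. An interaction could not be tested, since no degree of freedom is left for it.

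Smaller gaps between the genotypes fell outside counting error in most members at rest and in fewer after LPS. This was not counted over all genes, so it cannot be called particular to the members. Lamp3 after LPS had a ratio of -1.42 (-2.48 to -0.45) on 32 and 13 reads. Ctsz and Atp6v0a1 after LPS had -0.52 (-0.57 to -0.46) and -0.53 (-0.66 to -0.41). Ctso had -0.55 (-0.65 to -0.45) at rest and 0.33 (0.15 to 0.51) after LPS, with opposite signs in the 2 states. Ctsb and Ctsd changed sign the other way. Ctsb had 0.42 (0.38 to 0.46) at rest and -0.15 (-0.25 to -0.06) after LPS. Ctsd had 0.30 (0.24 to 0.36) at rest and -0.24 (-0.35 to -0.13) after LPS. Ctsa, Ctsc and Ctsh were within 0.09 of 0 in both states.

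The V1 genes leaned one way at rest. All 8 had a higher CPM in ΔIRIS, beside 50.04% of all genes. The median log2 ratio was 0.35, with values from 0.19 (Atp6v1a and Atp6v1h) to 0.52 (Atp6v1d). In TPM Atp6v1h was slightly lower in resting ΔIRIS (45.4 TPM) than in resting ΔleftPAL (46.5 TPM). Atp6v1a was nearly equal in TPM (18.9 and 18.6). After LPS 7 of 8 were higher with a median of 0.11, beside 54.9% of all genes. In the fit over both states the V1 values ran from 0.13 to 0.29, and the lowest adjusted p was 0.71. The myeloid markers were also higher in the resting ΔIRIS library (1089 against 837 CPM), and their part in this lean was not tested. V0 genes had a median of 0.10 at rest and -0.06 after LPS. Cathepsins had a median of -0.05 at rest and -0.24 after LPS. The genes of 1 library share its preparation and scaling, so that 8 genes are not 8 observations of a genotype.

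**Figure D5:**
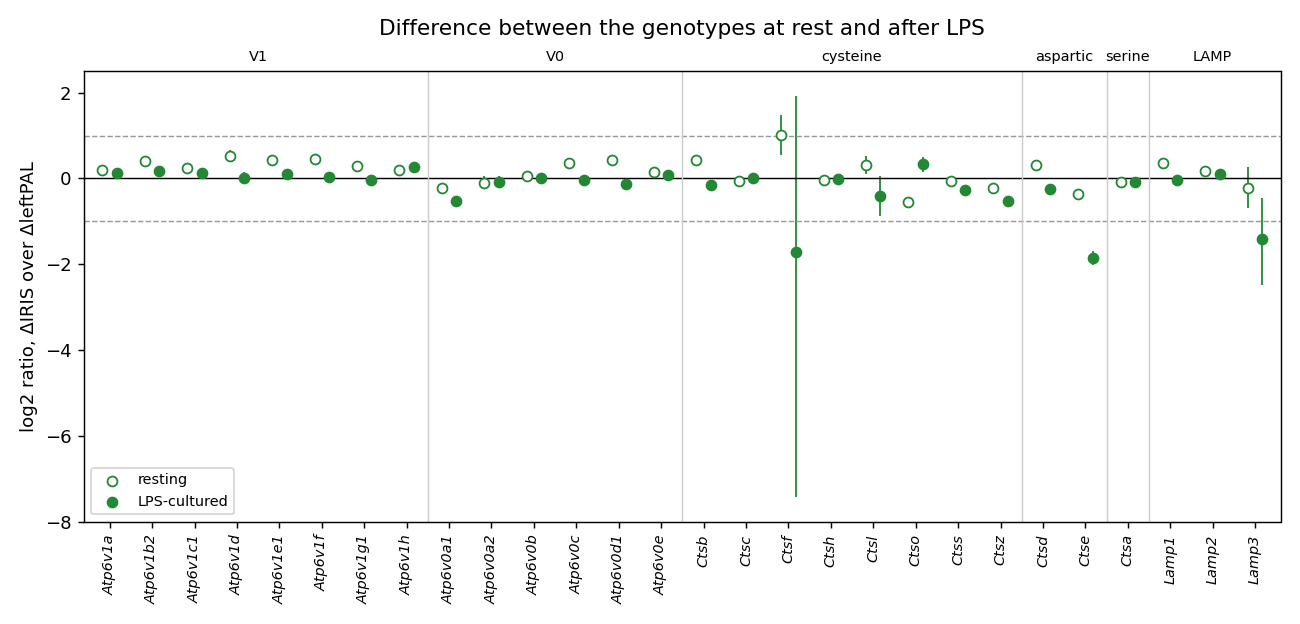
Log2 ratio of ΔIRIS over ΔleftPAL for each tested member at rest (open) and after LPS (filled), with 95% intervals for counting error only. Dashed lines mark a 2-fold difference. V1 genes lie above 0 at rest, Ctse lies at -1.85 after LPS, and the wide intervals of Ctsf and Lamp3 come from few reads.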

How the data were processed

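RNA was measured in 4 libraries, 1 per genotype and state. The authors mapped paired 150-nt reads with STAR (2.4.0a in the submitters' processing notes) to mm10 and deposited gene counts from featureCounts (Subread 1.4.6-p1), without normalization. The authors also deposited kallisto (0.42.3) estimated counts and TPM per transcript, which were summed per gene here, and estimated counts were rounded. Per the methods, counting was stranded and took primary alignments of multi-mapped reads. The forward setting named there is the opposite of the usual one for this kit, but the counts had a median ratio of 0.993 to kallisto's estimated counts over the members. A row without a gene name (0.00876% to 0.0264% of counts) was left out. No per-sample column was unused.

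Members and gene lists were chosen with earlier results of these data known. All members are accounted for. From each other lysosomal list and marker list, at most the 3 called genes with the largest difference after LPS are named. Others (Csf1r, Tfe3, Flt3, Lck, M6pr, Tcirg1, Arl8b, Ccdc115, Vma21, Rraga, Cd74 and the Lamtor genes) were named after their values were seen. The result of 1 marker gene is not reported here. Gene counts were fitted with edgeR 4.0.16 (R 4.3.3, limma 3.58.1), with terms for genotype and culture, TMM scaling, a minimum mean of 50 counts, and Benjamini-Hochberg adjustment over 11286 genes at 0.05. The labels do not number replicates. Nothing beyond the pooling says that the libraries are separate cultures, so p-values measure the spread between these libraries, moderated across genes. Pairs of libraries were compared by log2 ratios with exact 95% Clopper-Pearson intervals (scipy 1.17.1, numpy 2.4.6, pandas 2.3.3, Python 3.11.15). These and the floor of 3 counts cover counting error only. Alternatives used total counts, DESeq2 1.42.0, limma-voom, other filters, priors of 0.5 and 5 CPM, kallisto values and the omission of each library. Figures used matplotlib 3.10.9.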

Additional observations from a re-analysis of the deposited data

How the results depend on the processing

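The number of members called lower was within 1.5 times 13 in all settings run. Fits with 1 library left out had no genotype term. The 13 include Ctsf and Lamp3, which met the count limit only through the resting libraries, so their fall is no support for this number. Over all genes the share called lower ran from 19.3% with no filter on low counts to 33.3% with kallisto TPM. The number called higher was 2 with gene counts, 3 with kallisto estimated counts, 1 with total counts as library sizes, with kallisto TPM and with DESeq2's Wald test, 5 with protein-coding transcripts alone (added after seeing the data), and 1 to 3 when 1 library was left out. Members with responses at least 2-fold apart numbered 1 with kallisto TPM and with a prior of 5 CPM. Promoters with the longer palindrome numbered 5, against 9 with CACGTG. Scaling moved the median log2 difference of all genes from 0.12 to 0.057 with total counts, 0.094 with DESeq2 size factors, 0.15 with kallisto estimated counts and -0.19 with TPM. With TPM the genes called were 2452 higher and 3602 lower of 10805, against 4105 and 3148 of 11286 in gene counts. Between genotypes DESeq2 called 9 genes higher and 25 lower, and edgeR called 1 gene with gene counts, 1 higher and 17 lower with kallisto estimated counts, and 13 higher and 32 lower with no filter on low counts, with 0 members in each. Signs that turned were all of members not called. With kallisto estimated counts they were Atp6v0a2 (0.098), Atp6v0c (0.12), Atp6v0e (0.086), Atp6v1h (-0.082) and Lamp2 (0.049). With protein-coding transcripts they were Atp6v0a2 (0.026), Atp6v0c (0.22), Atp6v0e (0.014) and Lamp2 (0.12). With TPM they were Atp6v1b2 (-0.45), Atp6v1d (-0.054), Atp6v1e1 (-0.038), Atp6v1f (-0.085) and Atp6v1h (-0.40). The cause was not tested. Over the settings with 1 library left out, the values of members whose sign turned were Atp6v0a1 (-0.48 to 0.054), Atp6v0c (-0.28 to 0.084), Atp6v0e (-0.10 to 0.039), Atp6v1b2 (-0.025 to 0.39), Atp6v1d (-0.077 to 0.44), Atp6v1e1 (-0.016 to 0.41) and Atp6v1f (-0.070 to 0.37). Atp6v1d was called higher without resting ΔIRIS (0.44), and Ctsc lost its call without either LPS library in turn (adjusted p = 0.066 and 0.067). The genotype term links the 2 libraries of a genotype, and without it 2 members were called higher and 13 lower.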
